A study of Mus musculus with 4 samples.

Results

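H3K27me3 was described over the imprinted clusters of distal chromosome 7, which holds H19, Igf2, Ascl2, Kcnq1, Cdkn1c and Phlda2, and of chromosome 12, which holds Dlk1 and Meg3, in mouse blood progenitors of adult and fetal origin. The members were all deposited peaks that overlap chromosome 7 from 149.72 to 150.75 Mb or chromosome 12 from 110.66 to 110.85 Mb on mm9. They numbered 160 of 51871 peaks. On chromosome 7 there were 47 peaks of the bone marrow list and 95 of the fetal liver list, and on chromosome 12 there were 7 and 11. H3K27me3, the trimethylation of lysine 27 on histone H3, is written by Polycomb repressive complex 2 and is found over silenced genes.

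The adult cells were lineage-negative (lin-) bone marrow cells of C57BL/6 mice aged 8 weeks, and the fetal cells were lin- fetal liver cells taken at embryonic day 14.5 from mice labelled with the same strain. Both were transduced with a lentivirus for NOTCH1ΔE (N1dE), an activated form of the NOTCH1 receptor, kept for 3 days in medium with IL-3, IL-6, FLT3 ligand and SCF, and sorted for GFP before chromatin immunoprecipitation. The labels list 4 samples, an immunoprecipitation and an input for each source, so every group carries N1dE and there is no untransduced group. Each source gave 1 peak list, called on merged libraries against input. No spread between cultures or animals can be had from 1 list per source, and no test between the sources was made. The depth behind the lists is unknown. The 2 lists differ in length, with 1.62 times as many fetal liver as bone marrow peaks on the autosomes, and this ratio is given beside those of the clusters. The cell labels were not checked against marker genes here, because the lists hold no expression and no mm9 gene positions were used.

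In an imprinted cluster some genes are read from the copy inherited from 1 parent, under the control of a differentially methylated region. In the chromosome 7 cluster Igf2, a fetal growth factor, is read from the paternal copy, and H19, a long noncoding RNA, from the maternal copy. Further along, the antisense noncoding RNA Kcnq1ot1, which starts inside the potassium channel gene Kcnq1, is read from the paternal copy and silences genes on both sides of it in cis. Among these are Cdkn1c, the cyclin-dependent kinase inhibitor p57Kip2 that restrains cycling of blood stem cells, Phlda2, which limits placental growth, and Ascl2, a transcription factor of the placenta. On chromosome 12 the paternally read Dlk1 encodes a transmembrane protein related to Notch ligands and Meg3 is a maternally read long noncoding RNA. The lists do not separate the parental copies. A peak on 1 copy or on both, and in some of the cells or in all of them, cannot be told apart.

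The order of the genes was taken from RefSeq on GRCm38.p6, another build than that of the peaks, and used for names and neighbours alone. All 8 member genes were matched. From H19 to Phlda2 that table lists 26 genes, of which 12 are protein-coding, in the order H19, Igf2, Ins2, Th, Ascl2, Tspan32, Cd81, Tssc4, Trpm5, Kcnq1 with Kcnq1ot1, Cdkn1c, Slc22a18 and Phlda2, leaving out smaller noncoding genes. From Dlk1 to Meg3 and the genes that overlap Meg3 it lists 7 genes. No peak was assigned to a single gene, and positions are given below as mm9 coordinates or as distances from the start of the window, which is its H19 or Dlk1 side.

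Promoter sequences of member genes are shown because Polycomb in mammals is known to occupy promoters rich in CpG dinucleotides, and the members differ in this. Of the 8 member genes, 5 had an entry in the RefSeq promoter table (GRCm38.p6, 250 bases before to 50 after the start). The word CG, which reads the same on both strands, is in capitals in each sequence, which runs 5′ to 3′ along the gene. Where the peaks lie relative to these bases was not analysed here.
Phlda2: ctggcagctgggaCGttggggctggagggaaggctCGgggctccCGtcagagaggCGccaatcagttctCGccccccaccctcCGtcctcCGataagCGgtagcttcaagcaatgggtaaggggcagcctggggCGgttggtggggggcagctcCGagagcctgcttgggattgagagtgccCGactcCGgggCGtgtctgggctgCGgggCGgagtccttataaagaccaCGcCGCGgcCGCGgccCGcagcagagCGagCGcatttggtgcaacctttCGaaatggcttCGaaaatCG
Igf2: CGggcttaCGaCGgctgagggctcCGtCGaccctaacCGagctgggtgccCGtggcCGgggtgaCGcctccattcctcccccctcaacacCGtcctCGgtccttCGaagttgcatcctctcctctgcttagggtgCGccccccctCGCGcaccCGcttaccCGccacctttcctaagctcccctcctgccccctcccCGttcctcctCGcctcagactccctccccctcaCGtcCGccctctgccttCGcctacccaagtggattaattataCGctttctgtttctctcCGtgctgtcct
Ascl2: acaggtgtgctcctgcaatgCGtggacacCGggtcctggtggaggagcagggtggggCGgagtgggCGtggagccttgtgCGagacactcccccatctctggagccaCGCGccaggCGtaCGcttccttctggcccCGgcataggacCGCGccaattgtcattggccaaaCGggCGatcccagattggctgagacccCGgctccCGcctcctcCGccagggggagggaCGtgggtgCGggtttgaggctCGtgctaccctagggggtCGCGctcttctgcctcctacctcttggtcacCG
Dlk1: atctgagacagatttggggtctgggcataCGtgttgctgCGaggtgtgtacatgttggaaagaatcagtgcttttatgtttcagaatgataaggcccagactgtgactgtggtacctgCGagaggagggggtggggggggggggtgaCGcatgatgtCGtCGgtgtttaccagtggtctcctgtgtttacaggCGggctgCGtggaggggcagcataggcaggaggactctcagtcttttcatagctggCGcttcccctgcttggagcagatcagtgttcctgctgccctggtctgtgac
The Phlda2 promoter held 26 CG, and 16.9% of the 32851 promoters of this length held as many or more. The Ascl2 promoter held 23, which 21.5% of promoters reached. Igf2 has 4 promoters in the table, with 2, 14, 24 and 7 CG, and the one shown is the richest. Dlk1 had 9 and the Meg3 promoters 13 and 1, against a median of 7 over the table.

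Both lists marked the chromosome 7 cluster densely. Of the 1030 kb window, 90.8 kb (8.82%) lay inside bone marrow peaks and 161 kb (15.6%) inside fetal liver peaks. Over the autosomes the cover was 1.65% and 2.50%, and over the rest of chromosome 7 it was 2.00% and 2.80%. Among 2336 autosomal tiles of the same length, 97.6% had less bone marrow cover and 98.3% had less fetal liver cover. The 500 kb before the window were marked as densely, with a bone marrow cover of 10.6% and a fetal liver cover of 17.2%, whereas the 500 kb after it held 3.22% and 8.62%.

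Fetal liver had more peaks and more cover in the cluster, in a ratio that many other regions reached. There were 2.02 times as many fetal liver as bone marrow peaks (95% Wilson interval 1.43 to 2.86, which covers counting error over peaks only), against 1.53 on the rest of chromosome 7 and 1.62 on the autosomes, both inside the interval. The ratio of covered length was 1.77, and the median over 1743 autosomal tiles with cover in both lists was 1.47 (interquartile range 1.14 to 1.93). Of the bone marrow peaks, 35 of 47 (74.5%, 60.5 to 84.7%) overlapped a fetal liver peak, and of the fetal liver peaks 35 of 95 (36.8%, 27.8 to 46.9%) overlapped a bone marrow peak. The autosomal shares were 68.9% and 39.6%, again inside these intervals, which also cover counting error over peaks only. Bases in both lists came to 67.6 kb, 74.4% of what bone marrow and 42.0% of what fetal liver peaks covered. Among peaks of at least 3-fold enrichment, 5 of bone marrow and 9 of fetal liver, the cover ratio turned to 0.632. It stayed above 1 under the other peak filters. With the fetal liver list cut by −log10 p to bone marrow length, the cover ratio was 1.44 and the peak ratio 1.49. Peaks whose −log10 q reached 2 gave 1.61 and 1.62, while the whole lists then had a peak ratio of 0.912. Peaks 1 kb or wider gave a cover ratio of 1.71.

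In 10 kb bins, counted as marked from 1 bp of peak, the cluster held 35 shared bins, 22 marked in the fetal liver list alone, 2 marked in the bone marrow list alone and 44 without a peak, of 103. The shared bins were 34.0% of the window, against 5.69% of 241524 autosomal bins. Bins of fetal liver alone were 21.4%, against 4.46%, and bins of bone marrow alone 1.94%, against 1.15%. Set against marked bins, the share of fetal liver alone was 37.3% in the cluster and 39.4% on the autosomes, which is near the background, and that of bone marrow alone was 3.39%, from 2 bins, and 10.2%. Bins of bone marrow alone numbered 10 after trimming of the fetal liver list, by −log10 p, to the length of the bone marrow list, and were also 10 at a −log10 q of at least 2, where 4 bins were shared. The window thus had more marked bins than the autosomes, while fetal-liver-only bins made up a similar share of them. Cover was greater in fetal liver in 45 bins and greater in bone marrow in 14. On the autosomes these were 20140 and 6930 bins, so that the split between the sources was near the background.

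**Figure D1:**
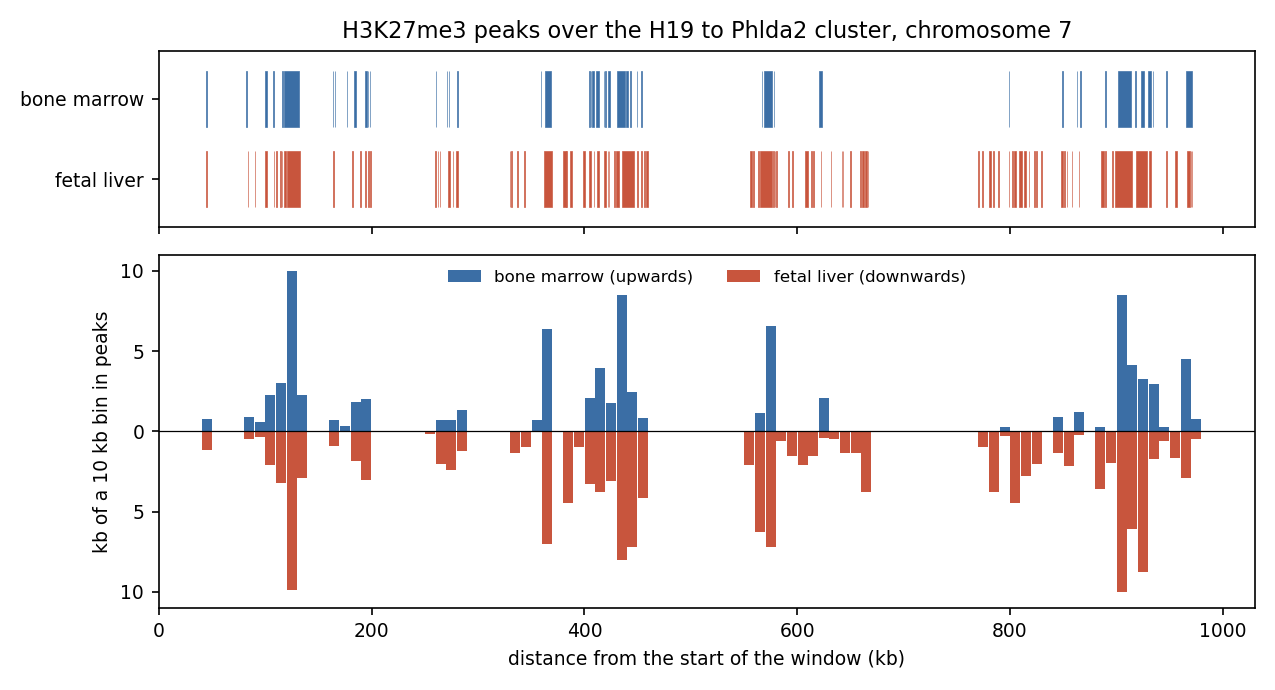
Peaks of the bone marrow and fetal liver lists (upper tracks) and kb of each 10 kb bin inside peaks (lower bars, bone marrow upwards, fetal liver downwards) by distance in kb from the start of the 1030 kb window on chromosome 7. Tall bars of both lists stand together near 120, 360, 430, 570 and 900 kb, while from 580 to 890 kb the fetal liver peaks are many and the bone marrow peaks few.

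The excess of fetal liver cover was uneven along the cluster. Of the 69.9 kb by which fetal liver exceeded bone marrow cover, 1.69% lay in the first 200 kb, 29.7% in the next 300 kb, 57.5% in the next 400 kb and 11.2% in the last 130 kb; these stretches were set after the values of 100 kb segments had been seen. In the first 200 kb, the H19 side, the bone marrow list covered 24.7 kb and the fetal liver list 25.9 kb, a ratio of 1.05. In the third stretch, from 150220001 to 150620000, they covered 12.4 kb and 52.5 kb, a ratio of 4.24. There, 9 bone marrow peaks stood against 44 fetal liver peaks, and 16 of the 24 marked bins were marked in fetal liver alone, none in bone marrow alone. Of marked bins on the autosomes, 39.4% were marked in fetal liver alone and 10.2% in bone marrow alone. On the Phlda2 side, from 150620001 on, the ratio was 1.32, with a cover of 24.4 kb and 32.2 kb and 7 peaks in each list, counted by their start.

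Since the third stretch was picked for its difference, its ratio and its counts of peaks and bins are a description. Among 3222 autosomal tiles of 400 kb with cover in both lists, 93.3% had a lower ratio, and the median was 1.47 (interquartile range 1.08 to 2.09). Its bone marrow cover of 3.10% was above that of 83.2% of all 400 kb tiles, and its fetal liver cover of 13.1% was above that of 95.9%. The stretch was thus marked in both lists. The tiles were not picked for a difference, so the rank of its ratio among them cannot show that the stretch is unusual. At a −log10 q of at least 2, where the whole fetal liver list is shorter than the bone marrow list by a ratio of 0.912, the stretch kept 3 bone marrow and 13 fetal liver peaks, with a cover ratio of 4.74. At a fold enrichment of at least 3 it kept 2 and 8 peaks and the cover ratio was 1.67.

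**Figure D2:**
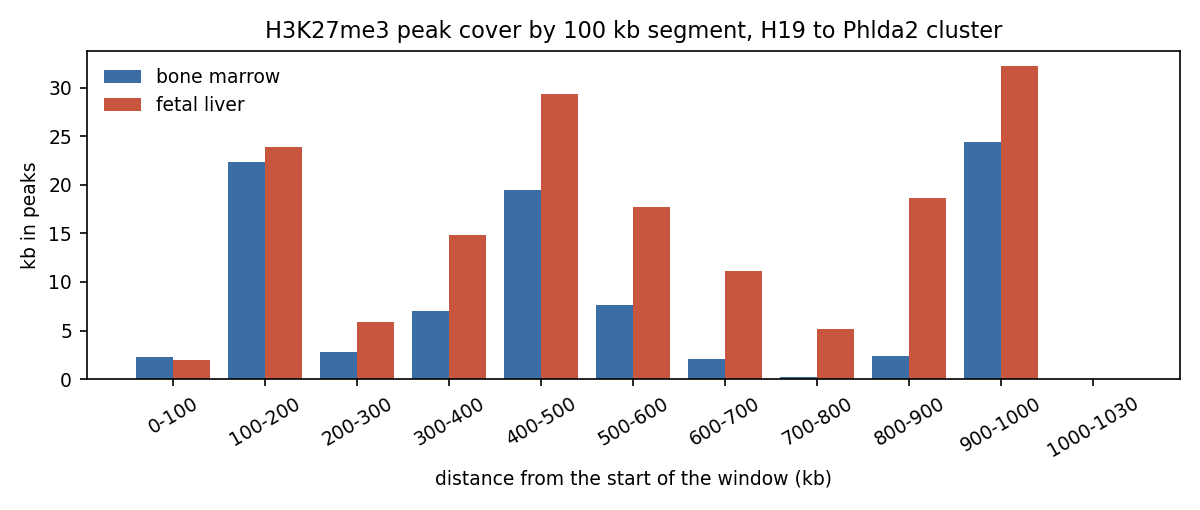
Kilobases inside bone marrow and fetal liver peaks for each 100 kb segment of the chromosome 7 window (the last segment is 30 kb), by distance in kb from its start. The lists are within 1.48 kb of each other in both segments of the first 200 kb, and fetal liver stands highest above bone marrow, by 16.2 kb, from 800 to 900 kb.

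On the H19 and Igf2 side the widest marked region was nearly the same in both sources. The joined region (peaks from the 2 lists merged across distances of up to 3 kb) from 149834051 to 149852925 was 18.9 kb wide and was 80.8% bone marrow peak and 81.8% fetal liver peak. It held the widest bone marrow peak of the cluster, of 14.9 kb, from 149837382 to 149852253, with an enrichment over input of 2.41-fold (−log10 q 2.21). Fold enrichment and −log10 q, the significance after adjustment, are the authors' own values for a peak. The fetal liver peak over it was 12.8 kb wide, from 149840118 to 149852925, with an enrichment of 2.12-fold (−log10 q 1.62). Its start lay 2.74 kb further in and its end 0.672 kb further out, and 12.1 kb were common to the pair. A shorter fetal liver peak, from 149837229 to 149839110, lay over the start of the bone marrow peak. Fetal liver peaks together covered 93.2% of that bone marrow peak. The 14.9 kb and 12.8 kb peaks ranked alike within their own lists, at the 78.7th percentile of −log10 q in bone marrow and the 75.2nd in fetal liver.

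The first peak of either list was a short one near 44.2 kb from the window start. In bone marrow it ran from 149764198 to 149764942 with a fold enrichment of 2.98 and stood at the 95.1st percentile of −log10 q. The fetal liver peak there, from 149764239 to 149765380, had a fold enrichment of 1.48 and stood at the 7.30th percentile. The opposite was seen at 181 kb, where the fetal liver peak from 149901352 to 149902864 had a fold enrichment of 3.96, at the 99.4th percentile of fold, and no bone marrow peak overlapped it. The nearest bone marrow peak, from 149903885 to 149905691, had a fold enrichment of 2.39.

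With joining across 3 kb the cluster had 50 regions, 24 shared, 25 fetal-liver-only and 1 bone-marrow-only, the last 0.351 kb wide, from 149896919 to 149897269. On the autosomes 41.9% of regions were shared, 46.1% fetal-liver-only and 12.1% bone-marrow-only. A fetal-liver-only share of 50.0% here was near the background, and a bone-marrow-only share of 2.0%, from 1 region, was below it. These counts moved with the joining distance. Where peaks had to touch, 31 regions were shared, 60 fetal-liver-only and 12 bone-marrow-only, against autosomal shares of 31.1%, 52.3% and 16.6%. Across 10 kb there were 13, 3 and 0, against 51.4%, 38.0% and 10.6%, so that the fetal-liver-only share was then below the background. The widest fetal-liver-only region, from 150100258 to 150108172, was 7.92 kb wide with 3 peaks covering 4.48 kb, of which the strongest had a fold enrichment of 2.00. The median width was 5126 bp for shared and 973 bp for fetal-liver-only regions. Shared regions held nearly all of the bone marrow cover, 90.5 of 90.8 kb, and 127 kb of the fetal liver cover.

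In the middle of the window 3 further shared regions reached 10 kb. The region from 150078925 to 150089103 was filled alike, for 69.3% by bone marrow and 69.1% by fetal liver peaks. In it a bone marrow peak of 6.35 kb lay wholly inside a fetal liver peak of 7.03 kb, with edges 0.450 and 0.238 kb apart. The region from 150123922 to 150133980 held 5.27 kb of bone marrow against 4.44 kb of fetal liver cover. The third, from 150147358 to 150179993, was 32.6 kb wide and held 11.8 kb and 21.1 kb.

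Within that 32.6 kb region the widest peaks of the sources were offset, although most of the bone marrow one was marked in fetal liver too. The bone marrow peak ran from 150150356 to 150158178 and the fetal liver peak from 150154914 to 150166888. In this pair 3.27 kb were common and the fetal liver peak ended 8.71 kb further on. A shorter fetal liver peak, from 150149882 to 150152901, lay over the start of the bone marrow peak. Fetal liver peaks together covered 74.3% of that bone marrow peak. The bin from 150160001 to 150170000 held 7.20 kb of fetal liver against 2.45 kb of bone marrow cover. The region also ended with a pair of fetal liver peaks, of which the one from 150177665 to 150179993 had a fold enrichment of 2.73, past the last bone marrow peak at 150174070. After it came a stretch of 96.0 kb, from 150179994 to 150275958, without a peak in either list.

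On the far side of this empty stretch the shared region from 150282834 to 150301032 was filled for 42.1% by bone marrow and 77.2% by fetal liver peaks. A bone marrow peak of 7.08 kb, from 150289252 to 150296330, lay under a fetal liver peak of 10.6 kb, from 150285271 to 150295909, that began 3.98 kb earlier. Within those 3.98 kb the bone marrow list had a peak of 0.364 kb, from 150286819 to 150287182. The bin from 150280001 to 150290000 held 1.11 kb of bone marrow and 6.25 kb of fetal liver cover. At the end of this region were 2 of the 3 fetal liver peaks with the highest −log10 q of the cluster, from 150299080 to 150299446 (fold enrichment 3.71, −log10 q 4.75) and from 150300434 to 150301032 (3.38 and 4.20). No bone marrow peak overlapped either of them.

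The longest stretch of the cluster without a bone marrow peak followed, from 150342839 to 150519203, 176 kb wide. It held 14 fetal liver peaks, 8 before and 6 after a stretch of 103 kb, from 150386537 to 150489964, that was free of both lists. Their widths ran from 220 to 2151 bp with a median of 511.5 bp, and they covered 12.1 kb. Their fold enrichment ran from 1.61 to 3.16, and 13 of the 14 had a −log10 q above the median of the fetal liver list. Gaps of this width were common, being 13.9% of the 19496 gaps between neighbouring bone marrow peaks on the autosomes, and 45 gaps, or 0.231%, held at least 14 fetal liver peaks. Of the 2713 gaps at least as wide, 33, or 1.22%, held as many. The gap lies inside the third stretch, which was picked for its difference, so these shares are a description. The next longest bone marrow gap, of 113 kb, held 5 fetal liver peaks, and 16.5% of gaps at least that wide held as many. The peaks in this gap were thus many and short, and 5 of them reached a −log10 q of 2.

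The bone marrow peaks at the edges of that gap were themselves of high fold enrichment. The one before it, from 150340778 to 150342838, had a fold enrichment of 3.14, and its bin had the largest excess of bone marrow, with 2.06 kb against 0.420 kb of fetal liver cover. The fetal liver peak inside it had a fold enrichment of 3.36. The one after the gap, from 150519204 to 150519462, was 259 bp wide with a fold enrichment of 3.09 and no fetal liver peak over it. It was the sole bone marrow peak of a 15.9 kb region, from 150518729 to 150534626, in which 5 fetal liver peaks covered 7.04 kb, so that this region counted as shared although bone marrow filled 1.63% of it.

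Toward the Cdkn1c and Phlda2 end lay the widest region of the cluster, 38.8 kb from 150615992 to 150654770. Bone marrow peaks filled 48.5% of it and fetal liver peaks 73.7%. It held the widest fetal liver peak, of 16.1 kb, from 150618730 to 150634842, with an enrichment of 2.47-fold (−log10 q 2.32). A bone marrow peak of 12013 bp, from 150621517 to 150633529, lay wholly within it, with an enrichment of 2.00-fold (−log10 q 1.25). Within their own lists the pair stood at the 90th percentile of −log10 q in fetal liver and the 43.0th in bone marrow.

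In the second part of this region the peaks were short in bone marrow and led by a long one in fetal liver. A fetal liver peak of 9.99 kb ran from 150638779 to 150648766, and the bone marrow peak inside it, from 150643165 to 150645810, was 2.65 kb wide. That bone marrow peak had the highest −log10 q of its list in the cluster, 3.76, at a fold enrichment of 3.32. After a break the fetal liver list had 1 more peak here, from 150650287 to 150652033, and the bone marrow list 2, from 150649382 to 150652329 and from 150654175 to 150654770. The bin from 150640001 to 150650000 had the largest excess of fetal liver of the cluster, with 8.77 kb against 3.27 kb in bone marrow. In the next bin, to 150660000, bone marrow covered more, 2.92 kb against 1.75 kb. In these 20 kb neither source was free of the mark.

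The last marked region, from 150685495 to 150691139, had more bone marrow cover. A single bone marrow peak of 5.29 kb, with a fold enrichment of 2.11, filled 93.7% of it, and 3 fetal liver peaks filled 59.4%. The bin from 150680001 to 150690000 held 4.51 kb of bone marrow against 2.90 kb of fetal liver cover. Beyond 150700001 neither list had a peak to the end of the window.

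Rank within a list also varied along the cluster. In the first 200 kb the median percentile of −log10 q was 53.2 for bone marrow and 37.0 for fetal liver peaks, and 7 of 13 and 7 of 16 peaks were above the median of their list. In the third stretch the medians were 64.7 and 76.2. There, 8 of 9 bone marrow peaks were above the median, and 36 of 44 from fetal liver were. In the last 130 kb they were 85.7 and 79.0. Peaks of both lists thus ranked higher on the Phlda2 than on the H19 side. Over the whole cluster the medians were 61.2 and 68.5. Each percentile gives the place of a peak within its own list. The lists differ in length, and the depth behind them is unknown. Percentiles set side by side for bone marrow and fetal liver peaks therefore compare these places, not the strength of the mark. Fold enrichments set side by side do not measure a difference in the mark between the sources either.

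**Figure D3:**
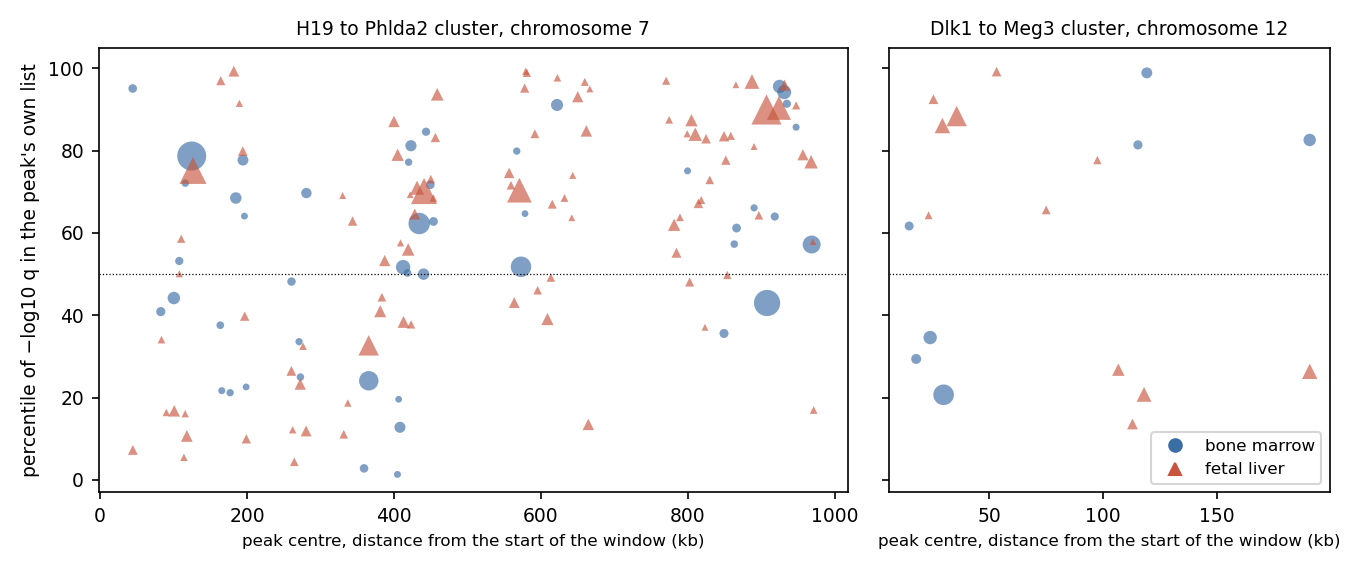
Percentile of −log10 q of each member within its own list against the distance in kb of the peak centre from the window start, for chromosome 7 (left) and chromosome 12 (right); marker area grows with peak width and the dotted line is the median of a list. On chromosome 7 the fetal liver peaks of the first 200 kb have a median percentile of 37.0 and those from 500 to 900 kb of 76.2, and on chromosome 12 the 2 widest fetal liver peaks of the first 50 kb rank above the 2 widest bone marrow peaks there, while near 115 kb both bone marrow peaks rank above both fetal liver peaks.

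The chromosome 12 cluster of Dlk1 and Meg3 was marked in both sources at 2 places inside the window and at another across its end. Of the 190 kb window, 14.7 kb (7.72%) lay inside bone marrow peaks and 23.0 kb (12.1%) inside fetal liver peaks, against 1.24% and 1.88% on the rest of chromosome 12. Fetal liver peaks were 1.57 times as many (95% Wilson interval 0.629 to 3.92), against 1.74 on the rest of the chromosome. Their covered length was also 1.57 times as large, against 1.52. Of 7 bone marrow peaks 4 overlapped a fetal liver peak, and of 11 fetal liver peaks 6 overlapped a bone marrow peak, or 57.1% (25 to 84.2%) and 54.5% (28.0 to 78.7%). The shares were 68.9% and 37.6% on the rest of chromosome 12, both inside these intervals. These intervals are wide with so few peaks. They cover counting error over peaks only, and peaks are not replicates of a source, so they decide nothing about a difference between the sources. After trimming of the fetal liver list, by −log10 p, to as many peaks as the bone marrow list holds, the cover ratio was 1.01.

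In 10 kb bins the cluster held 4 shared bins, 4 of fetal liver alone, 2 of bone marrow alone and 9 without a peak, of 19. These classes were 21.1%, 21.1%, 10.5% and 47.4% of the window, beside autosomal shares of 5.69%, 4.46%, 1.15% and 88.7%. Set against marked bins, fetal liver alone had 4 of 10, near the 39.4% of marked bins on the autosomes. Shared bins were also 4 of 10, against 50.4%, and those of bone marrow alone 2 of 10, against 10.2%. The window thus had more marked bins than the autosomes, while fetal-liver-only bins made up a similar share of them. In the first 50 kb, the Dlk1 side, the cover was close, at 11.9 kb for bone marrow and 12.4 kb for fetal liver. From 50 to 100 kb there were 3 fetal liver peaks over 2.43 kb and no bone marrow peak. From 100 to 150 kb the fetal liver list covered 7.11 kb and the bone marrow list 2.47 kb.

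**Figure D4:**
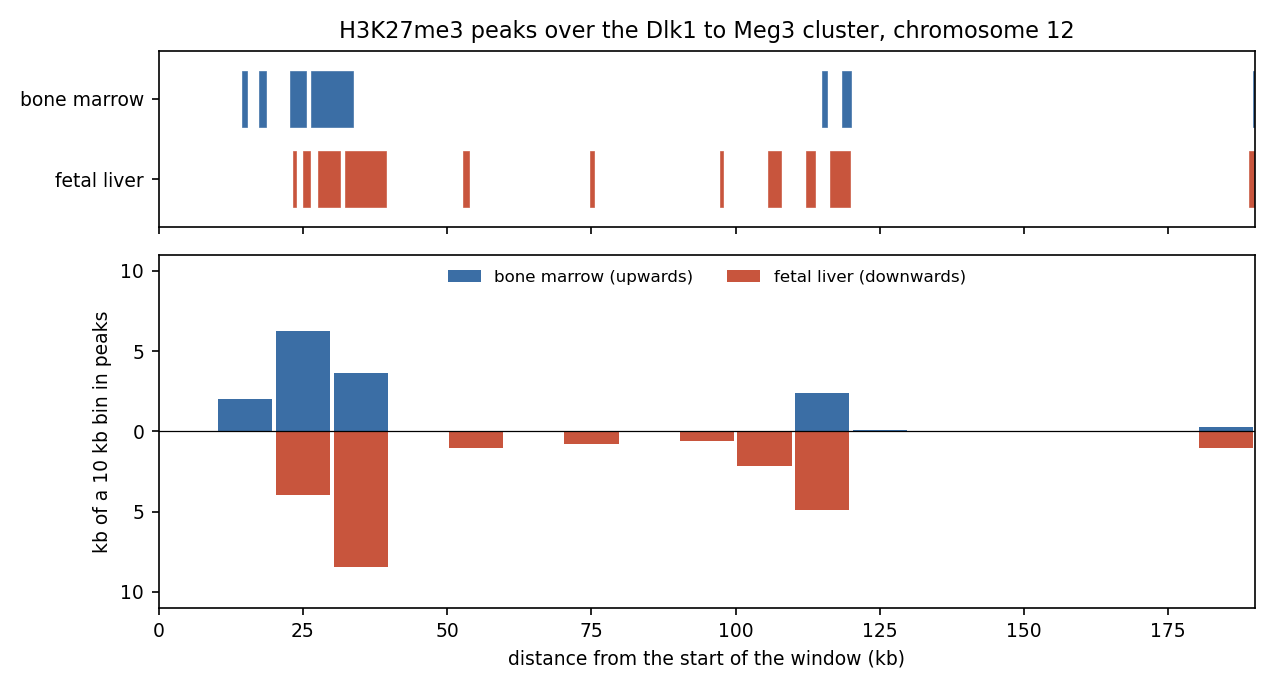
Peaks of both lists (upper tracks) and kb of each 10 kb bin inside peaks (lower bars, bone marrow upwards, fetal liver downwards) by distance in kb from the start of the 190 kb window on chromosome 12. Both lists mark the stretch from about 20 to 40 kb and the one near 115 kb, the bone marrow peaks begin earlier, and 4 bins between 50 and 110 kb hold fetal liver peaks alone.

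At the Dlk1 side the widest peaks of the sources were shifted against each other, within a domain that both lists marked. The shared region from 110682807 to 110699308 was 16.5 kb wide and filled for 59.9% by bone marrow and 75.2% by fetal liver peaks. Its widest bone marrow peak, of 7.20 kb, ran from 110686448 to 110693650 with a fold enrichment of 1.95. The widest fetal liver peak, of 7.03 kb, ran from 110692281 to 110699308 with a fold enrichment of 2.61. Its start and end lay 5.83 and 5.66 kb further along, so that 1.37 kb were common to the pair. A further fetal liver peak lay wholly inside the 7.20 kb bone marrow peak, and 71.2% of that bone marrow peak was inside fetal liver peaks. The 7.20 kb bone marrow peak stood at the 20.7th percentile of −log10 q in its list and the 7.03 kb fetal liver peak at the 88.4th.

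Bin by bin, the bone marrow cover was greater on the outer side and the fetal liver cover greater on the inner side of that domain. The bin from 110670001 to 110680000 held 2.04 kb of bone marrow peaks and no fetal liver peak, and the next one, to 110690000, held 6.23 kb and 3.99 kb. In the bin from 110690001 to 110700000 the order was turned, with 8.43 kb of fetal liver against 3.65 kb of bone marrow cover. The bone-marrow-only region from 110674508 to 110678598, of 4.09 kb with 2 peaks, was the widest region of a single source in the cluster. Other wide peaks of the domain were a bone marrow peak of 2.68 kb, from 110682807 to 110685487, and a fetal liver peak of 3.75 kb, from 110687647 to 110691401.

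Between the 2 marked places stood short fetal liver peaks. The one from 110712794 to 110713845 had the highest fold enrichment of the fetal liver list in the cluster, 3.82, with a −log10 q of 4.57, at the 99.2nd percentile, and no bone marrow peak overlapped it. The next, from 110734731 to 110735495 and from 110757276 to 110757889, had fold enrichments of 2.13 and 2.25. The widest fetal-liver-only region, from 110765689 to 110767879, was 2.19 kb wide with a fold enrichment of 1.80. The bone marrow list had no peak from 110693651 to 110774941, a gap of 81.3 kb that held 5 fetal liver peaks; 15.5% of autosomal bone marrow gaps at least as wide held as many.

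On the Meg3 side, the shared region from 110772258 to 110780074 was filled for 31.6% by bone marrow and 62.9% by fetal liver peaks. The bone marrow peak from 110778518 to 110780074 was enriched 3.95-fold, with a −log10 q of 5.39, the highest of the bone marrow list in either cluster, at the 98.9th percentile of its list. The fetal liver peak over it, from 110776364 to 110779788, was wider, at 3.42 kb, with a fold enrichment of 1.71, and stood at the 20.8th percentile. The order of these ranks, each within its own list, was thus the opposite of that at the Dlk1 side. The bin from 110770001 to 110780000 held 2.40 kb of bone marrow and 4.91 kb of fetal liver cover.

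The last members lay across the end of the window. A bone marrow peak of 2200 bp, from 110849724 to 110851923, with a fold enrichment of 2.66, lay wholly inside a fetal liver peak of 3.72 kb, from 110848981 to 110852699, with a fold enrichment of 1.83. Between this pair and the Meg3-side region, neither list had a peak from 110790001 to 110840000.

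In both clusters wide peaks of the sources overlapped in part. On chromosome 7, 5 of the 6 bone marrow peaks of at least 5 kb overlapped a fetal liver peak of that width, and the common part was 27.3 to 94.8% of the fetal liver peak. On chromosome 12 the single such pair had 1.37 kb in common, 19.5% of the fetal liver peak. Fetal liver peaks of any width covered 71.2% of the bone marrow peak of that pair. They covered 74.3% of the bone marrow peak in the 27.3% pair on chromosome 7. With 1 pair on chromosome 12 and 1 list per source, the difference between the clusters was not tested.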

How the data were processed

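H3K27me3 was measured by native immunoprecipitation of chromatin cut with micrococcal nuclease, per the labels' protocols. The submitters' processing notes name mm9, MACS2 2.1.0, Picard and BWA 0.5.7; settings, depth and the number of merged libraries were not given in the sources used here. The deposited fold enrichment is a ratio to input made by the authors, and the deposited significance columns are −log10 p and −log10 q. The deposited score column was not used. These values served to describe, rank or filter peaks within a list.

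Windows followed mm9 coordinates with chromosome lengths from GenomeInfoDb 1.38.1 in R 4.3.3. Positions count from 1. Cover was clipped to the window. Bins, tiles and gaps of the 19 autosomes left out the first 3 Mb of each. Percentiles give the share of the own list below a value. Groups came from sample titles. Intervals are 95% Wilson intervals (scipy 1.17.1) over peaks, which are not replicates of a source. Numpy 2.4.6, pandas 2.3.3 and matplotlib 3.10.9 were used in Python 3.11.15. The interval code was tested on simulated data of 400 regions and recovered 13 of 13 quantities.

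Peaks named were the 3 widest of each list and cluster, every joined region of at least 10 kb, the widest region of each single-list class and the bins that differed most (up to 3 each way); further peaks beside them were chosen after their values were seen. The members and lists were chosen with earlier results of these data known. Alternatives covered peak score, fold, width, list length, bins, joining and window limits. Gene-level cover and marker genes were planned but not run, as no mm9 gene positions were used here.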

Additional observations from a re-analysis of the deposited data

How the results depend on the processing

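No paired analysis was possible because each source has a single list. Of 94 alternative values, 52 stayed within 1.5 times of the reported value (for peak ratios, within its interval), 41 moved and 1 turned its direction; the unknown depth limits every comparison of cover. Counts follow as chromosome 7, then chromosome 12. At a fold enrichment of at least 3 the chromosome 7 cover ratio turned to 0.632, from 5 bone marrow and 9 fetal liver peaks; the cause was not tested. Shared bins were then 1 and 0 and fetal-liver-only bins 8 and 2, and the third stretch had a ratio of 1.67 and the 176 kb gap 3 fetal liver peaks. At a −log10 q of at least 2 shared bins were 4 and 0, bone-marrow-only bins on chromosome 7 numbered 10, the chromosome 12 cover ratio was 4.71, and the gap held 5. The reduced fetal liver list gave 10 and 4 bone-marrow-only bins, and 2 shared bins on chromosome 12. The cover ratio was then 1.44 on chromosome 7 and 1.01 on chromosome 12. Peaks of at least 1 kb gave 20 shared bins on chromosome 7, 2 fetal-liver-only bins on chromosome 12 and 5 peaks in the gap. On chromosome 7, bins of 5 kb gave 5 bone-marrow-only and 42 fetal-liver-only, and bins of 20 kb 23 shared, 0 and 11. With 1 kb of peak needed, shared bins on chromosome 7 were 20 and bone-marrow-only bins on chromosome 12 were 1. With 5 kb needed, shared, bone-marrow-only and fetal-liver-only bins were 5, 0 and 4 on chromosome 7 and 0, 1 and 1 on chromosome 12. Bins started 5 kb later gave 1 and 1 bone-marrow-only. Regions joined only where they touch were 12 and 3 for bone marrow alone and 60 for fetal liver alone on chromosome 7. These classes were then 16.6% and 52.3% of autosomal regions. Joined within 10 kb, 13 were shared on chromosome 7, 0 and 0 were bone-marrow-only and 3 and 2 fetal-liver-only. The autosomal shares of the single-list classes were then 10.6% and 38.0%. The settings for the gap and the third stretch were chosen after seeing the data.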
